A study of Mus musculus with 6 samples.

Results

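The collagen chains of the mouse heart were compared between hearts labelled β1 integrin knockout (heart_KO) and wild type (heart_WT) at E12.5. A member is any row of the deposited value table whose single annotated symbol is Col, a number, a, and a number, and where a gene has several clusters, the brightest on average was taken. This gave 44 chains from 46 transcript clusters, out of 19933 genes with a cluster. They were 11 fibrillar chains, 6 chains of type IV, 6 of type VI, 9 FACIT chains (fibril-associated collagens with interrupted helices) and 12 others. Each group held 3 hearts, described by the design text as biological replicates, with 1 Affymetrix Mouse Gene 1.0 ST array per sample. Itgb1 encodes the β1 chain shared by most receptors for collagen, laminin and fibronectin. The cells in which the gene was deleted, the driver of the deletion, the strain, and the number of hearts in a sample are not given in the sources, so heart below stands for 1 sample. Values by heart are listed in the order of replicates 1 to 3 of each group.

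Collagens are secreted proteins in which 3 chains wind into a helix of repeated glycine triplets. Fibrillar collagens bundle into the fibrils that give tissue its tensile strength, and FACIT chains sit on the surface of those fibrils. Type IV collagen forms the sheet-like network of basement membranes, and type VI collagen forms beaded microfilaments around cells. In the embryonic heart, collagens are laid down mainly by the mesenchyme of the cushions that become valves, by epicardium-derived cells and by the endothelium, and cells bind them through β1 integrins and the discoidin domain receptors Ddr1 and Ddr2.

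Promoter letters are shown for some of the chains named in the results. Of the 4 chains whose knockout signals lay above all wild-type signals, Col6a1 and Col6a2 are shown, and Col14a1 and Col20a1 are not. Col8a2, whose knockout signals lay below all wild-type signals, is shown too. The pair Col4a1 and Col4a2 is also shown, whose signals moved together over the hearts, as did those of Col1a1 and Col1a2. The sequences are from RefSeq on GRCm38.p6, which gave a window for 35 of the 44 chains. The first 3 are the 250 bases before the annotated first base, on the strand of the gene. Capitals mark the motifs searched on either strand, namely GGGCGG, the CCAAT box and the TATAAA box, and overlapping matches run together.
Col6a1 (chr10:76726045-76726294, minus strand): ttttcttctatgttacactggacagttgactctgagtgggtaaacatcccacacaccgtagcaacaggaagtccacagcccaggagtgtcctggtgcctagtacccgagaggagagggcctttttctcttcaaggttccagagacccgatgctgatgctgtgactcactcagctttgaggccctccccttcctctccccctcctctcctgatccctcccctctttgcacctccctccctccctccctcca
Col6a2 (chr10:76623631-76623880, minus strand): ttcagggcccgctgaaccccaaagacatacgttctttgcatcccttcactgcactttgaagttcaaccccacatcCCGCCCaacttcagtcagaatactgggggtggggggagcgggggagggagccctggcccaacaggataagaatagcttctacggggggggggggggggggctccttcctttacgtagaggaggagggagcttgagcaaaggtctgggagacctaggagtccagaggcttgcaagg
Col8a2 (chr4:126286544-126286793, plus strand): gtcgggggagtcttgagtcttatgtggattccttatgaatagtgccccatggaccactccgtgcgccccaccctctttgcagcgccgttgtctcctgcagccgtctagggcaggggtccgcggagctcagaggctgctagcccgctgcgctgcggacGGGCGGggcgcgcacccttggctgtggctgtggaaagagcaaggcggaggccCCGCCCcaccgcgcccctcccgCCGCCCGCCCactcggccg
Col4a1 (30 bases, chr8:11312954-11312983, minus strand): tgcttgcccgggATTGGcgagccaaggggc
Col4a2 (30 bases, chr8:11312761-11312790, plus strand): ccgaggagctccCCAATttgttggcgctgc

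None of the 3 motifs was in the Col6a1 window, and GGGCGG was in that of Col6a2 once and in that of Col8a2 4 times, counting overlaps. Col4a1 and Col4a2 are read from opposite strands, and their annotated genes overlap at the 5′ ends. The Col4a1 start used here, position 11312826, lies inside its annotated gene, whose 5′ end is at position 11312889. It is 21 bases from the Col4a2 start at position 11312805. The window of each gene lies inside the annotated gene of the other, and each window holds 1 CCAAT. The Col4a2 window also held GGGCGG 2 times. In Col4a1 the CCAAT lies 145 bases before the start used here, as ATTGG, and in Col4a2 32 bases before its start. Over all 32851 windows of 250 bases, 33.8% held CCAAT, 32.7% GGGCGG and 12.4% TATAAA on either strand. The 35 chains with a window had 38 windows, of which 13 held CCAAT, 22 GGGCGG and 5 TATAAA. Counted by chain, with a match in any of its windows, these were 13, 21 and 5 of 35. A match is a description of the letters and not of a bound site.

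Itgb1 log2 signals were 11.76, 11.80 and 11.78 in the wild-type hearts against 11.53, 11.42 and 11.65 in the knockout hearts. All knockout hearts lay lower, by 0.25 on average, and the exact two-sided permutation p was 0.1, the smallest that 3 against 3 can give. The position of the probes relative to the deleted part is not given, so this value does not settle the check of the labels. Over the 28767 clusters tested by limma with Benjamini-Hochberg adjustment, 0 passed an adjusted p of 0.05, and 1705 had an unadjusted p under 0.05. Precision is limited by the number of arrays: differences had a median standard error of 0.11. Array medians lay between 6.65 and 6.71.

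No collagen chain passed the test: 0 of 44 had a limma adjusted p under 0.05, against 0% of all clusters, and the lowest adjusted p among them was 0.797. Unadjusted p-values were under 0.05 for 6 chains (13.6%), against 5.93% of all clusters. 5 of them were higher in the knockout (Col6a1, Col6a2, Col12a1, Col14a1 and Col20a1), against 3.06% of all clusters, and 1, Col8a2, was lower, against 2.87%. The knockout mean was the higher one for 32 chains (72.7%) and the lower one for 12, against 46.5% of all clusters with a higher knockout mean. The median difference, knockout minus wild type, was 0.06 on the log2 scale over the chains and -0.01 over all clusters. For 4 chains (9.09%) every knockout heart lay above every wild-type heart, against 6.01% of all clusters, and for 1 chain (2.27%) every knockout heart lay below, against 6.61%.

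**Figure D1:**
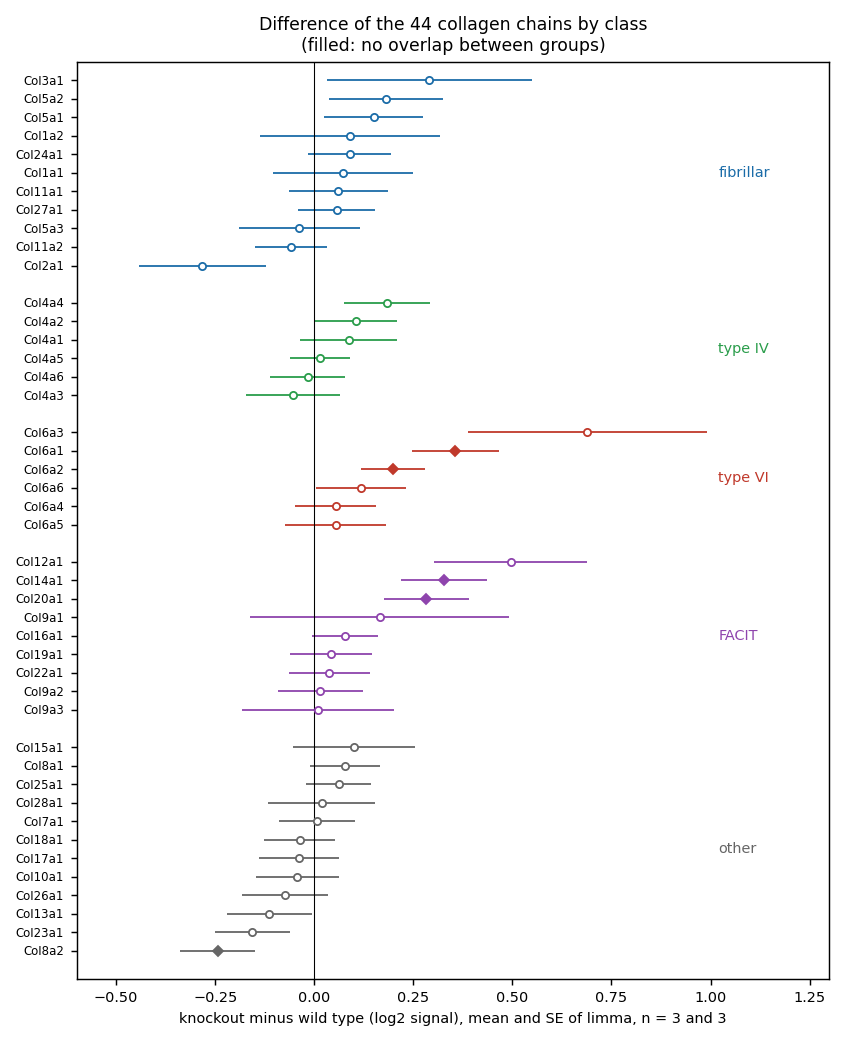
Difference between knockout and wild-type hearts for each of the 44 collagen chains, by class, on the log2 scale, with the standard error of limma (n = 3 and 3). Filled points are the 5 chains with no overlap between the groups, and all 6 type VI and all 9 FACIT chains lie above 0, with adjusted p of 0.797 or more throughout.

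These counts changed when single hearts were left out, and so did the shares of all clusters. Clusters wholly above wild type made up 9.09% to 13.7% in these fits, against 6.01% with all hearts. Those wholly below made up 10.7% to 14.4%, against 6.61%. Without wild-type replicate 3, 16 chains lay wholly above wild type, against 12% of all clusters in that comparison of 3 with 2 hearts. Without knockout replicate 2 there were 7 such chains, against 10.4% of all clusters. Chains wholly below numbered 4 of 44 (9.09%) without wild-type replicate 1 and as many without wild-type replicate 2, against 11.2% and 10.7% of all clusters. They numbered 2 of 44 when any 1 knockout heart was left out, against 11.1% to 14.4%. These shares of the chains were all smaller than those of all clusters. The number of chains with a higher knockout mean ranged from 24 without wild-type replicate 1 to 34 without wild-type replicate 3. The arrays measured whole hearts, in which fewer cells of a type and less RNA per cell cannot be told apart.

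All 6 type VI chains had a higher knockout mean, with a median difference of 0.16, and 0 passed limma's test. That median was the highest of the 5 classes with all hearts, but without wild-type replicate 3 it was 0.18 against 0.25 for the FACIT chains. It was 0.28 over the 4 chains left by the filter on dim clusters. Col6a1, a chain present in every type VI microfilament, had signals of 8.39, 8.12 and 8.31 in the wild-type hearts against 8.71, 8.48 and 8.71 in the knockout hearts. Every knockout heart was above every wild-type heart, and the difference was 0.36 ± 0.11 (log2, SE; limma adjusted p = 0.797), or 1.28-fold. Leaving out 1 heart gave differences from 0.28 to 0.43.

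Col6a2, which joins Col6a1 in the same trimer and lies 85161 bases from it on chromosome 10, on the same strand, gave 8.57, 8.46 and 8.55 in the wild-type hearts against 8.77, 8.72 and 8.68 in the knockout hearts. The groups did not overlap here either, and both groups were tight, with SDs of 0.06 and 0.05 (n = 3 each). The difference was 0.20 ± 0.08 (log2, SE; limma adjusted p = 0.797), with a range of 0.17 to 0.22 when 1 heart was left out. Col6a3, the long chain that completes the trimer, gave 7.33, 6.86 and 7.91 in the wild-type hearts against 7.91, 7.69 and 8.57 in the knockout hearts. Its mean difference was the highest of all 44 chains, at 0.69 ± 0.30 (log2, SE; limma adjusted p = 0.797), or 1.61-fold, but the hearts overlapped, as knockout replicate 2 lay below wild-type replicate 3. The difference was 0.44 without wild-type replicate 2 or without knockout replicate 3, and 0.96 without wild-type replicate 3.

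The chains that can stand in for Col6a3 in other trimers differed less. Col6a4 and Col6a5 were each higher by 0.05, with standard errors of 0.10 and 0.13, and Col6a6 was higher by 0.12 ± 0.11 (log2, SE). Their hearts overlapped, and the 95% intervals of the differences ran from -0.18 to 0.29 for Col6a4, from -0.25 to 0.35 for Col6a5 and from -0.15 to 0.38 for Col6a6. Col6a4 and Col6a5 turned their sign when wild-type replicate 1 was left out. Col6a5 and Col6a6 had a further, dimmer cluster each, with differences of 0.17 ± 0.15 and 0.20 ± 0.17.

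**Figure D2:**
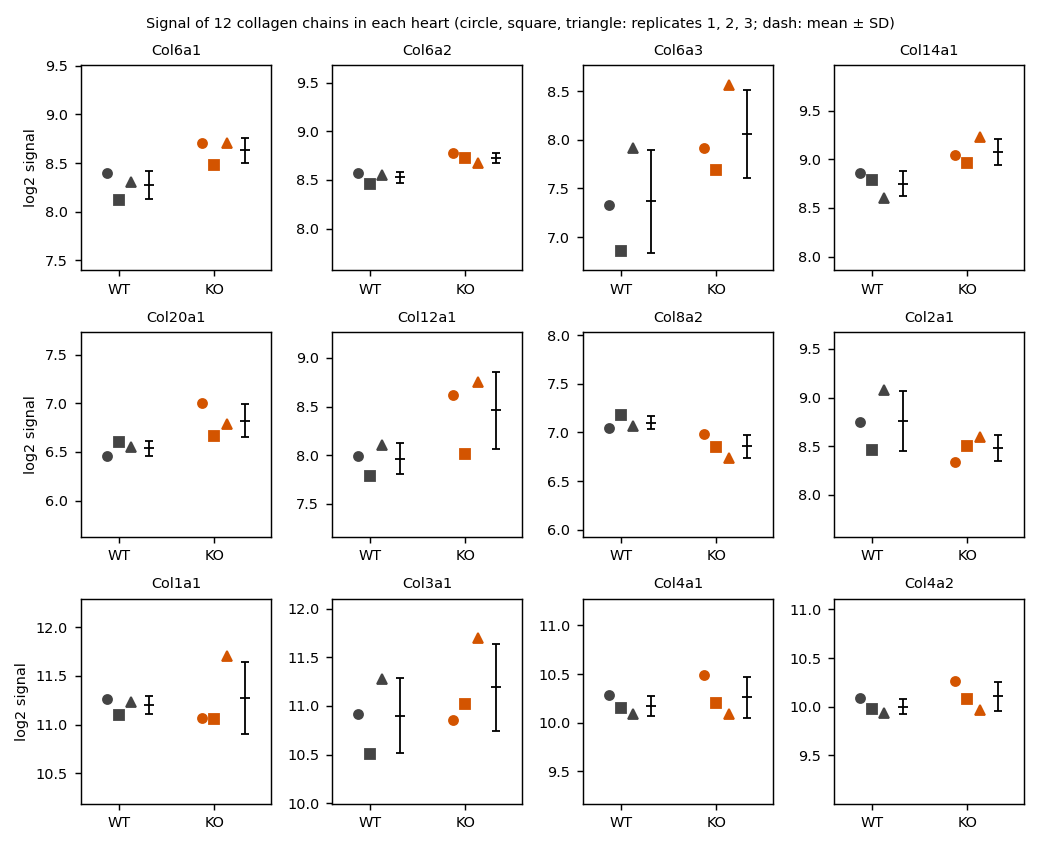
Log2 signal of 12 collagen chains in each heart, with the mean and SD of each group (n = 3); each panel has its own level and all panels span the same range of log2 units. The knockout hearts lie wholly above the wild-type hearts for Col6a1, Col6a2, Col14a1 and Col20a1 and wholly below for Col8a2, and they overlap for the other 7.

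All 9 FACIT chains had a higher knockout mean, with a median difference of 0.08, and 0 passed limma's test. Leaving out wild-type replicates 1, 2 or 3 in turn gave medians of 0.03, 0.05 and 0.25. It was 0.12 without dim clusters. Col14a1, which binds the surface of type I collagen fibrils, gave 8.86, 8.78 and 8.61 in the wild-type hearts against 9.04, 8.97 and 9.23 in the knockout hearts. The groups were separate, and the difference was 0.33 ± 0.11 (log2, SE; limma adjusted p = 0.797), or 1.26-fold. It ranged from 0.25 to 0.38 when 1 heart was left out. Col20a1, a FACIT chain related to Col12a1 and Col14a1, gave 6.46, 6.60 and 6.55 in the wild-type hearts against 7.0, 6.67 and 6.79 in the knockout hearts. Its groups were separate too, by a narrow margin between wild-type replicate 2 and knockout replicate 2, and the difference was 0.28 ± 0.11 (log2, SE). It was 0.19 without knockout replicate 1 and 0.17 with array weights. These weights, here and below, come from the scatter of each array and not from a measured quality. They were 0.35, 2.98 and 0.54 for knockout replicates 1 to 3, so the weighted knockout mean rests mostly on replicate 2.

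Col12a1, the large chain that links fibrils with their surroundings in tissue under tension, gave 7.99, 7.79 and 8.11 in the wild-type hearts against 8.62, 8.01 and 8.75 in the knockout hearts. Knockout replicates 1 and 3 stood above all wild-type hearts, while knockout replicate 2 lay among them. The difference was 0.50 ± 0.19 (log2, SE, with limma adjusted p = 0.797), or 1.41-fold. It was 0.24 with array weights, 0.35 without knockout replicate 3 and 0.72 without knockout replicate 2. Col16a1, a minor FACIT chain, was higher by 0.08 ± 0.08, and Col19a1 and Col22a1, both chains of specialised basement membrane zones, by 0.04 ± 0.10 each.

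The type IX chains, which coat cartilage-type fibrils, differed by 0.16 ± 0.33 for Col9a1, 0.02 ± 0.11 for Col9a2 and 0.01 ± 0.19 for Col9a3 (log2, SE). Col9a1 gave 7.04, 7.22 and 8.20 in the wild-type hearts against 7.32, 7.48 and 8.15 in the knockout hearts. The replicate 3 heart of each group was the high one, and the gap between hearts of a group exceeded the gap between the groups. Without knockout replicate 3 the Col9a1 difference was -0.09, and without wild-type replicate 3 it was 0.52.

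Among the 11 fibrillar chains, 8 had a higher and 3 a lower knockout mean, with a median difference of 0.07 and 0 past limma's test. The median was 0.007 without knockout replicate 3 and 0.03 without wild-type replicate 2, and it was 0.15, 0.13 and 0.13 without wild-type replicate 3, knockout replicate 1 and knockout replicate 2. None had separate groups. Col1a1, the main chain of type I collagen, gave 11.27, 11.10 and 11.24 in the wild-type hearts against 11.06, 11.05 and 11.70 in the knockout hearts. Knockout replicate 3 was the highest heart, and the other knockout hearts lay below all wild-type hearts. Its partner Col1a2 gave 10.86, 10.67 and 10.96 in the wild-type hearts against 10.56, 10.73 and 11.48 in the knockout hearts. The differences were 0.07 ± 0.18 and 0.09 ± 0.23 (log2, SE; limma adjusted p = 0.943 and 0.946), with 95% intervals of -0.34 to 0.49 and -0.44 to 0.62. Without knockout replicate 3 they were -0.14 and -0.19. Col1a1 was also lower in the knockout with array weights, by a difference of -0.04.

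Col3a1, which forms mixed fibrils with type I collagen in soft tissue and vessels, gave 10.92, 10.51 and 11.28 in the wild-type hearts against 10.85, 11.02 and 11.70 in the knockout hearts. Replicate 3 of each group was high and wild-type replicate 2 was low, and the difference of 0.29 ± 0.26 (log2, SE; limma adjusted p = 0.844) became 0.04 without knockout replicate 3 and 0.09 without wild-type replicate 2. Dropping wild-type replicate 3 gave 0.48, and dropping knockout replicate 1 gave 0.46. Col5a2, which sets the start and diameter of fibrils together with Col5a1, gave 9.24, 9.15 and 9.51 in the wild-type hearts against 9.46, 9.27 and 9.72 in the knockout hearts, a difference of 0.18 ± 0.14. Col5a1 differed by 0.15 ± 0.13 and the third type V chain, Col5a3, by -0.04 ± 0.15. Without knockout replicate 3, Col5a2 differed by 0.06 and Col5a1 by 0.04, without wild-type replicate 2 by 0.11 and 0.08, and without wild-type replicate 3 by 0.29 and 0.23. Col5a2 also stood at 0.29 without knockout replicate 2 and at 0.09 with array weights.

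Col2a1, the main fibrillar chain of cartilage, had the lowest difference of all 44 chains. It gave 8.75, 8.46 and 9.08 in the wild-type hearts against 8.34, 8.50 and 8.60 in the knockout hearts, so that wild-type replicate 2 lay among the knockout hearts. The difference was -0.28 ± 0.16 (log2, SE; limma adjusted p = 0.797), and it became -0.12 once wild-type replicate 3 was dropped, -0.43 once wild-type replicate 2 was dropped and -0.19 with array weights. Col11a1 and Col11a2, which build fibrils with Col2a1, differed by 0.06 ± 0.12 and -0.06 ± 0.09. The minor fibrillar chains Col24a1 and Col27a1 differed by 0.09 ± 0.11 and 0.06 ± 0.10. The hearts of the groups overlapped for all 4.

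Type IV collagen, the network of basement membranes, had 4 chains with a higher and 2 with a lower knockout mean, a median difference of 0.05 and 0 past limma's test. The median was -0.01 without knockout replicate 1 and 0.01 with array weights, and 0.09 and 0.10 without wild-type replicate 1 and knockout replicate 3. Col4a1 gave 10.29, 10.15 and 10.09 in the wild-type hearts against 10.49, 10.20 and 10.09 in the knockout hearts. Col4a2, which joins Col4a1 in the general basement membrane trimer, gave 10.09, 9.98 and 9.94 in the wild-type hearts against 10.27, 10.08 and 9.97 in the knockout hearts. The hearts fell in the same order for both genes, apart from a tie of wild-type and knockout replicates 3 in Col4a1, with knockout replicate 1 highest. Over the 6 hearts the Pearson correlation of both signals was 0.98, as a description of hearts that share arrays and groups. It was also high for partner chains of other classes: 0.97 for Col1a1 and Col1a2 and 0.90 for Col6a1 and Col6a2. For Col3a1 and Col5a2, which are neighbouring genes on chromosome 1 and not partner chains, it was 0.89. Col6a3 correlated at 0.82 with Col6a1 and at 0.64 with Col6a2. The differences of Col4a1 and Col4a2 were 0.09 ± 0.12 and 0.11 ± 0.10 (log2, SE; limma adjusted p = 0.900 and 0.858), and -0.03 and 0.03 without knockout replicate 1.

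The other type IV pairs also have neighbouring, oppositely oriented genes. Col4a4, of the trimer known from kidney and cochlea, gave 6.49, 6.54 and 6.63 in the wild-type hearts against 6.73, 6.92 and 6.57 in the knockout hearts, with knockout replicate 3 among the wild-type hearts and a difference of 0.18 ± 0.11. It was 0.10 without knockout replicate 2 and 0.31 with array weights. Its partner Col4a3 gave 6.25, 6.30 and 6.52 in the wild-type hearts against 6.49, 6.28 and 6.15 in the knockout hearts, a difference of -0.05 ± 0.12. The correlation of that pair over the hearts was 0.22. Both are dim here, with means under the median of all clusters. Col4a5 and Col4a6, the X-linked pair, differed by 0.01 ± 0.08 and -0.02 ± 0.09, with 95% intervals of -0.16 to 0.19 and -0.24 to 0.20, and a correlation of 0.41.

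**Figure D3:**
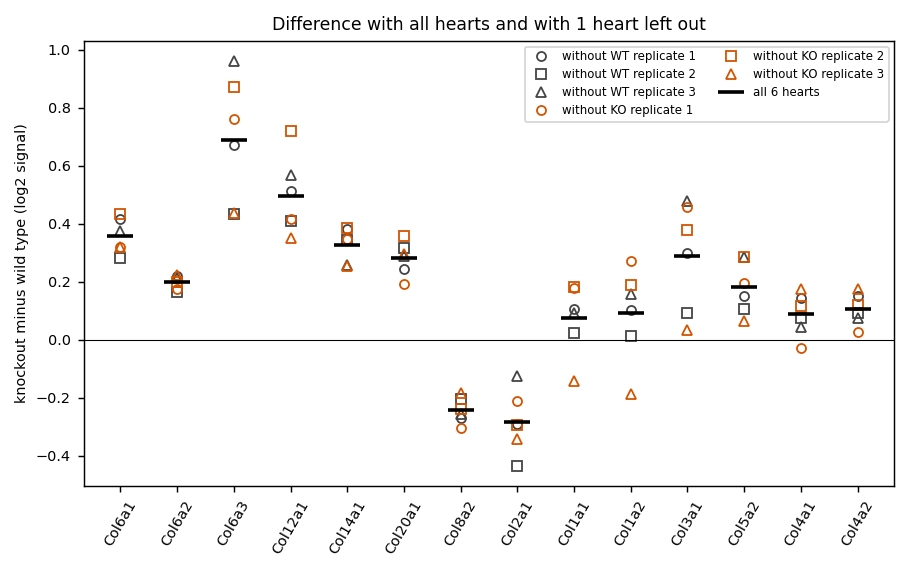
Knockout minus wild-type difference (log2) of 14 chains with all 6 hearts (bar) and with each heart left out in turn (symbols). Col6a1, Col6a2, Col6a3, Col12a1, Col14a1 and Col20a1 stay above 0 and Col8a2 and Col2a1 below 0 in all of these fits, while Col1a1, Col1a2 and Col4a1 cross 0.

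Of the 12 remaining chains, 5 had a higher and 7 a lower knockout mean, with a median difference of -0.04 and 0 past limma's test. The median was -0.09 without knockout replicate 2, -0.003 without knockout replicate 3 and 0.04 with array weights. Col8a2, a short chain that forms hexagonal networks with Col8a1, gave 7.05, 7.18 and 7.07 in the wild-type hearts against 6.98, 6.85 and 6.74 in the knockout hearts. It was the only chain of the 44 with all knockout hearts below all wild-type hearts, at -0.24 ± 0.09 (log2, SE; limma adjusted p = 0.797). The range was -0.31 to -0.18 when 1 heart was left out. Its partner Col8a1 gave 6.49, 6.61 and 6.64 in the wild-type hearts against 6.74, 6.59 and 6.64 in the knockout hearts, with overlap and a difference of 0.08 ± 0.09.

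The transmembrane collagens Col23a1, Col13a1 and Col17a1 had lower knockout means, with differences of -0.16 ± 0.10, -0.11 ± 0.11 and -0.04 ± 0.10 (log2, SE), and Col25a1 a higher one, at 0.06 ± 0.08. Col23a1 gave 7.88, 8.06 and 8.01 in the wild-type hearts against 7.93, 7.84 and 7.71 in the knockout hearts, and knockout replicate 1 overlapped with the wild-type hearts. Its difference was -0.10 without knockout replicate 3. The multiplexins of basement membrane zones stood at -0.04 ± 0.09 for Col18a1, the source of endostatin, and at 0.10 ± 0.15 for Col15a1. Col18a1 gave 9.90, 9.78 and 10.001 in the wild-type hearts against 9.88, 9.81 and 9.89 in the knockout hearts, with all knockout hearts inside the wild-type range. Col26a1 gave 8.36, 8.40 and 8.47 in the wild-type hearts against 8.20, 8.54 and 8.26 in the knockout hearts, a difference of -0.07 ± 0.11. The anchoring fibril chain Col7a1 (0.01 ± 0.10), Col10a1 of hypertrophic cartilage (-0.04 ± 0.10) and Col28a1 (0.02 ± 0.14) differed by less than their standard errors.

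The hearts of 1 group differed among themselves in a way that followed the class. Wild-type replicate 3 was the highest wild-type heart for 10 of 11 fibrillar chains and 7 of 9 FACIT chains, against 37.4% of all clusters. Wild-type replicate 2 was the lowest wild-type heart for 8 fibrillar chains, against 31.7% of all clusters. Knockout replicate 3 was the highest knockout heart for 9 of 11 fibrillar chains, against 31.7% of all clusters. For type IV the highest knockout heart was replicate 1 in 5 of 6 chains, against 37.4% of all clusters, and replicate 3 in 0. The mean of the fibrillar chains, relative to the wild-type mean, was -0.05, -0.13 and 0.19 in the wild-type hearts against -0.04, -0.03 and 0.24 in the knockout hearts. The same mean for type VI was -0.08, -0.07 and 0.15 in the wild-type hearts against 0.22, 0.15 and 0.37 in the knockout hearts, so that only wild-type replicate 3 and knockout replicate 2 met.

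Marker genes of the cells that make these chains varied over the same hearts. The mean of 6 cushion mesenchyme markers (Sox9, Twist1, Prrx1, Msx1, Tbx20 and Postn), relative to the wild-type mean, was -0.11, -0.51 and 0.62 in the wild-type hearts against 0.00, 0.15 and 0.77 in the knockout hearts. All 6 had a higher knockout mean and 0 passed. In this mean replicate 3 of each group was the high heart, as in the class means of the fibrillar, type VI and FACIT chains. Taken singly, wild-type replicate 3 was the highest wild-type heart for 2 of 6 type VI chains, against 37.4% of all clusters. Knockout replicate 3 was the highest knockout heart for 3 of 6, against 31.7%, beside a tie with replicate 1 in Col6a1. For Col6a1 and Col6a2 the highest wild-type heart was replicate 1. Smooth muscle and pericyte markers stood at 0.04, -0.18 and 0.14 in the wild-type hearts against 0.27, -0.02 and 0.39 in the knockout hearts, with 4 of 5 higher. Epicardial markers, 3 of 5 higher, stood at 0.01, -0.07 and 0.05 in the wild-type hearts against -0.23, 0.01 and 0.21 in the knockout hearts. Replicate 3 was the highest heart of each group for the smooth muscle and pericyte list and for the epicardial list too. Endothelial markers, 4 of 5 lower, stood between -0.03 and 0.04 in wild-type and between -0.13 and -0.04 in knockout hearts. All 6 cartilage markers (Acan, Matn1, Matn3, Matn4, Comp and Chad) were dim, with means under the median of all clusters. Liver markers separated the groups: all 5 (Alb, Afp, Ahsg, Apoa1 and Ttr) had a higher knockout mean, against 46.5% of all clusters, and 3 (Alb, Afp and Ahsg) lay wholly above wild type, against 6.01% of all clusters. Their mean stood between -0.09 and 0.10 in wild-type hearts and at 0.46, 0.68 and 0.99 in knockout hearts, although all 5 were dim. Alb differed by 1.57 ± 0.34 and Afp by 1.20 ± 0.30 (log2, SE; limma adjusted p = 0.797 for both). Macrophage markers, 5 of 5 with a higher knockout mean, stood between -0.07 and 0.07 in wild-type and between -0.02 and 0.25 in knockout hearts. All 4 measured erythroid markers and the 2 measured Schwann cell markers had a higher knockout mean, but the groups overlapped for each of them. The erythroid differences ran from 0.01 ± 0.11 for Klf1 to 0.46 ± 0.48 for Alas2 (log2, SE). Sox10 and Erbb3, the Schwann cell markers, differed by 0.06 ± 0.09 and 0.02 ± 0.12. The 7 cardiomyocyte markers, which check the labelled tissue, had mean signals of 13.1 to 13.2 in the hearts, and 3 had a higher knockout mean. The part of these cell types in the collagen values was not tested.

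**Figure D4:**
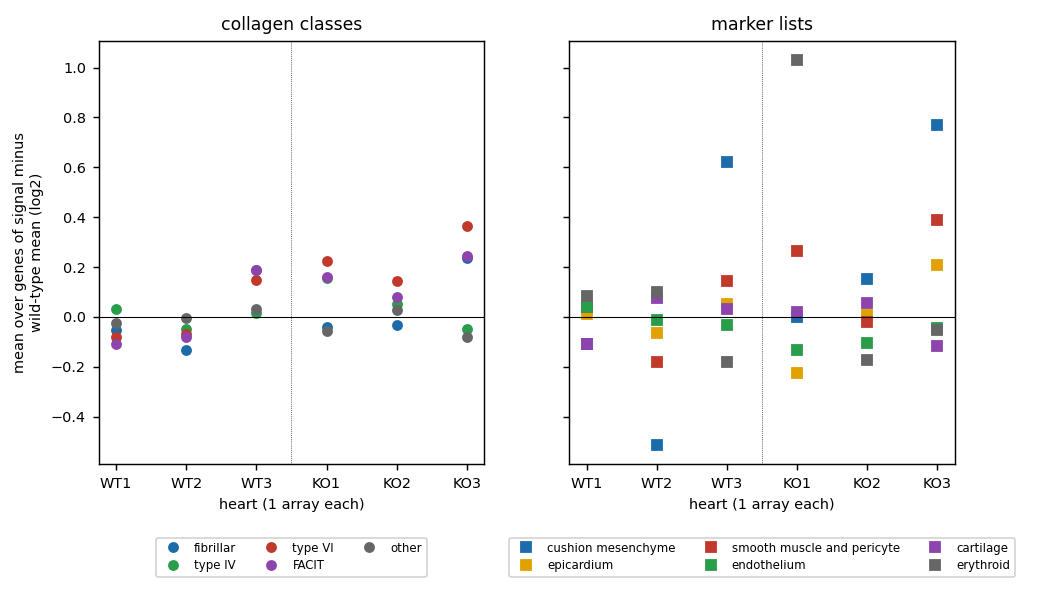
Mean over the genes of each collagen class (left) and of 6 marker lists (right) of the log2 signal minus the wild-type mean of each gene, in each heart (1 array each). In these means replicate 3 is highest in both groups for fibrillar, type VI and FACIT chains and for cushion mesenchyme, smooth muscle and pericyte, and epicardial markers. The erythroid markers stand out in knockout replicate 1, at 1.03.

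The enzymes that modify, secrete and cross-link collagen were read from a list of 35 genes, of which 32 had a cluster of their own. Of these 32, 20 had a higher and 12 a lower knockout mean, 0 passed limma's test, and the median difference was 0.03. P4ha1 and P4ha2 encode the catalytic subunits that hydroxylate prolines and so stabilise the helix. P4ha1 gave 9.51, 9.49 and 9.50 in the wild-type hearts against 10.89, 9.84 and 9.93 in the knockout hearts, and P4ha2 gave 8.42, 8.39 and 8.54 in the wild-type hearts against 10.21, 8.70 and 8.71 in the knockout hearts. All knockout hearts lay above all wild-type hearts for both, with replicate 1 far above the others.

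The differences were 0.72 ± 0.26 for P4ha1 and 0.75 ± 0.37 for P4ha2 (log2, SE; limma adjusted p = 0.797 for both), and 0.38 and 0.25 without knockout replicate 1, or 0.45 and 0.40 with array weights. Plod2, which hydroxylates lysines for cross-links, gave 9.52, 9.66 and 9.74 in the wild-type hearts against 10.90, 9.81 and 10.09 in the knockout hearts, also without overlap. Its difference of 0.63 ± 0.25 was 0.31 without knockout replicate 1 and 0.32 with array weights. These 3 were the genes of the list that lay wholly above wild type (9.38%, against 6.01% of all clusters). Knockout replicate 1 was also the heart with the highest erythroid markers, whose mean exceeded that of wild type by 1.03, while the other knockout hearts stood at -0.17 and -0.05. The part of blood content was not tested.

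Lox, the enzyme that oxidises lysines in the finished fibril, followed another order of hearts, at 7.02, 6.84 and 7.50 in the wild-type hearts against 7.59, 7.19 and 8.36 in the knockout hearts. Knockout replicate 2 overlapped with the wild-type hearts, and the difference of 0.60 ± 0.30 was 0.27 without knockout replicate 3 and 0.35 with array weights. Plod1 differed by 0.27 ± 0.16, the prolyl 3-hydroxylase gene P3h2 by 0.23 ± 0.16 and P4hb, protein disulphide isomerase, by 0.15 ± 0.10. Without knockout replicate 1 these were 0.10, 0.05 and 0.08, and with array weights 0.16, 0.13 and 0.08. Without wild-type replicate 2 Plod1 stood at 0.18 and P4hb at 0.09, and without knockout replicate 3 P3h2 stood at 0.36. Crtap, the cofactor of prolyl 3-hydroxylation, stood at -0.21 ± 0.13, and at -0.09 without knockout replicate 1. Serpinh1, the collagen chaperone, differed by 0.02 ± 0.08, with a 95% interval of -0.17 to 0.20.

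**Figure D5:**
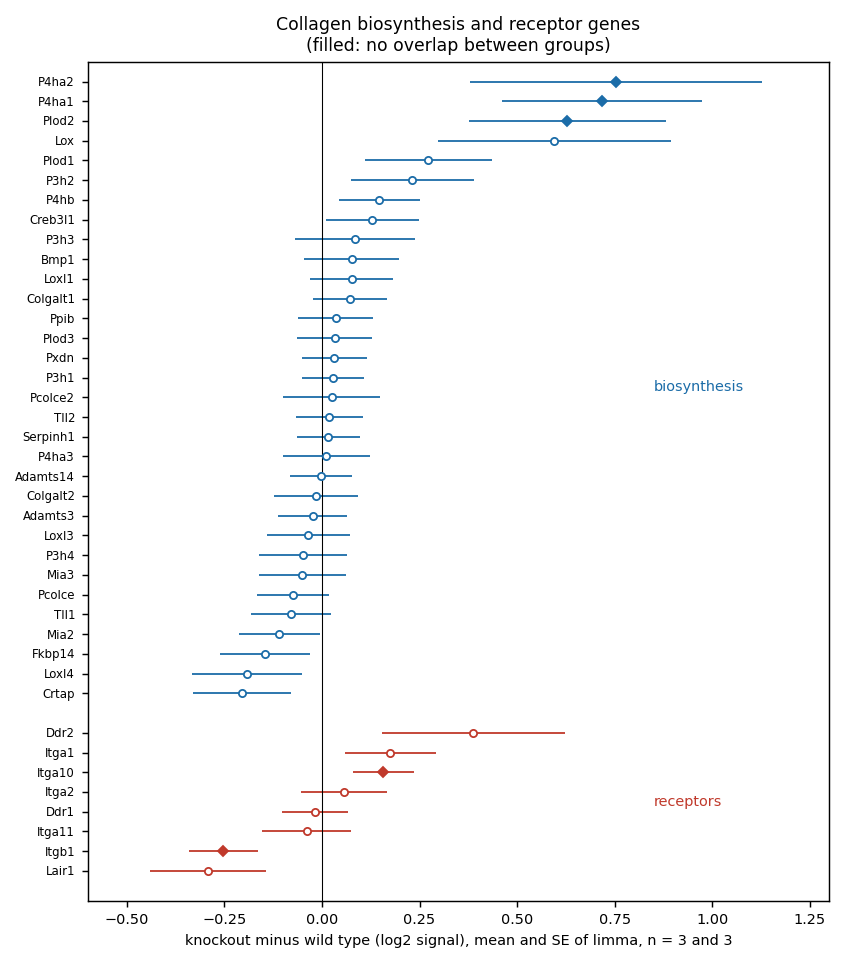
Difference between knockout and wild-type hearts (log2, with the standard error of limma, n = 3 and 3) for 32 genes of collagen biosynthesis and 8 collagen receptor genes. Filled points have no overlap between the groups: P4ha1, P4ha2, Plod2 and Itga10 lie above 0 and Itgb1 below.

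Of 9 collagen receptor genes 8 were measured, 4 with a higher and 4 with a lower knockout mean, and 0 passed limma's test. Among the α chains that pair with β1 to bind collagen, Itga10 gave 6.32, 6.26 and 6.29 in the wild-type hearts against 6.42, 6.49 and 6.42 in the knockout hearts. It was dim, and its groups were separate, at a difference of 0.16 ± 0.08 (log2, SE; limma adjusted p = 0.797). Itga1 differed by 0.17 ± 0.12, Itga2 by 0.06 ± 0.11 and Itga11 by -0.04 ± 0.11, all with overlap. The Itga1 difference was 0.08 without knockout replicate 1, 0.26 without knockout replicate 2 and 0.03 with array weights.

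Ddr2, a receptor tyrosine kinase for fibrillar collagen, gave 6.82, 6.68 and 7.34 in the wild-type hearts against 7.17, 7.04 and 7.79 in the knockout hearts. Replicate 3 was again high in both groups, and the difference of 0.39 ± 0.23 was 0.16 once knockout replicate 3 was dropped. Dropping wild-type replicate 2 gave 0.25, and dropping wild-type replicate 3 gave 0.58. Ddr1, its epithelial relative, differed by -0.02 ± 0.08, and the leukocyte collagen receptor gene Lair1, which was dim, by -0.29 ± 0.15. Without wild-type replicate 3 the Lair1 difference was -0.17.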

How the data were processed

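Per the submitters' processing notes, the authors made the deposited log2 signals by RMA, a method that removes background, quantile-normalizes the arrays and combines the probes of a cluster. RMA compresses differences of dim clusters. Which version was run is not given in the sources. A platform annotation gave 1 symbol for 21776 of 28767 clusters, and 21686 of these matched GRCm38.p6 genes by Entrez identifier.

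Knockout was compared with wild type over all clusters with limma 3.58.1 in R 4.3.3 (lmFit and eBayes, two-sided, Benjamini-Hochberg adjustment, threshold 0.05), 3 against 3, with no filter, pseudocount or covariate. P-values reflect how far these samples vary, which may be partly technical. The fit was tested on simulated data. A dim cluster has a mean under the median of all clusters.

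The members, classes and gene lists were chosen with earlier results of these data known. Chains whose values are given by heart are the 4 markers Col1a1, Col3a1, Col4a1 and Col6a1, those without overlap, the 2 lowest p and 2 highest means of each class, and their partner chains; Col8a1 and Col9a1 were added after their values were seen. Of the biosynthesis list the 8 genes with the lowest p and Serpinh1, chosen after its value was seen, are named. Protein sequences were not used here. Other settings tried were cyclic loess, repeated quantile normalization or median centring, array weights, a robust variance with a trend, no dim clusters, a single or averaged cluster for each gene, the replicate number as a block, and each heart left out.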

Additional observations from a re-analysis of the deposited data

How the results depend on the processing

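The single genes followed through the 15 alternative fits were the 44 chains, the 8 receptor genes and the 8 biosynthesis genes with the lowest p, 60 in all. None of these 60, and 0 genes of the whole biosynthesis and receptor lists, passed the adjusted threshold in any of those fits. The lowest adjusted p of the 60 was 0.247, for Itgb1 with array weights. Over all clusters, 0 to 1 passed when 1 heart was left out, the 1 being without knockout replicate 1. Of 887 pairs of a gene and an alternative, 838 kept the sign of the difference and 49, in 26 genes, turned it. No sign could turn under the robust variance with a trend, the replicate block, the single cluster for each gene or the filter on dim clusters. Those fits leave the difference of each gene as it was. Averaging the clusters of a gene did so for every chain with a single cluster, which is all but Col6a5 and Col6a6. Counts of chains wholly above wild type were 7 of 44 with cyclic loess, against 7.32% of all clusters in that setting. They were 4 to 16 of 44 when 1 heart was left out, against 9.09% to 13.7%. Counts wholly below were 1 to 4 of 44 when 1 heart was left out, against 10.7% to 14.4% of all clusters. The median difference of the other chains was 0.036 with array weights. That of type IV was -0.012 to 0.098 when 1 heart was left out. The medians for fibrillar, type VI and FACIT chains and over all 44 chains kept their sign throughout, with ranges of 0.007 to 0.151, 0.130 to 0.190, 0.028 to 0.251 and 0.029 to 0.099 when 1 heart was left out. The filter on dim clusters left 34 chains. Cyclic loess turned Ddr1 (0.009) and Col4a6 (0.012), and array weights turned Ddr1 (0.032), Col10a1 (0.025), Col17a1 (0.069), Col26a1 (0.070), Itga11 (0.098), Col1a1 (-0.041) and Col4a5 (-0.009). Leaving out 1 heart turned the sign of Col9a1 (-0.086 to 0.519), Col4a3 (-0.145 to 0.029), Col19a1 (-0.018 to 0.110), Col10a1 (-0.094 to 0.048), Col18a1 (-0.093 to 0.016), Col1a1 (-0.142 to 0.183), Col1a2 (-0.189 to 0.272), Itga2 (-0.035 to 0.114), Col22a1 (-0.033 to 0.120), Ddr1 (-0.059 to 0.029), Col17a1 (-0.115 to 0.033) and Col9a3 (-0.126 to 0.251). It did the same for Col11a1 (-0.026 to 0.182), Col15a1 (-0.001 to 0.240), Col27a1 (-0.005 to 0.139), Col9a2 (-0.064 to 0.092), Col28a1 (-0.087 to 0.129), Col4a1 (-0.029 to 0.173), Itga11 (-0.118 to 0.049), Col7a1 (-0.031 to 0.076), Col5a3 (-0.151 to 0.087), Col6a5 (-0.088 to 0.139), Col6a4 (-0.034 to 0.117) and Col4a6 (-0.090 to 0.043). The cause was not tested. Over all clusters, replicate numbers did not pair the hearts. Same-numbered hearts had deviations from their group means that correlated at -0.042, -0.026 and -0.056, and 0 of 6 hearts correlated best with its own number. Single chains differed in this. With the replicate number as a block, the standard error fell for some, such as Col6a3 (0.301 to 0.108) and Col9a1 (0.328 to 0.115). It rose for others, such as Col14a1 (0.108 to 0.129). The replicate block left 0 chains past the threshold. Its median chain difference of 0.059 could not change, because each replicate number holds 1 heart of each group. The number of arrays limits all of these values.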
